A study of Homo sapiens with 12 samples.

Results

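Antisense non-coding RNAs are transcribed from the DNA strand opposite to another gene, often from the same promoter region as a protein-coding neighbour and in the opposite direction. Some act on their neighbour in cis, some carry small nucleolar RNAs in their introns, and for many no function is known. Many are made in few cell types, together with the transcription factor genes beside which they lie. Of all genes counted by the study, 5273 carry the biotype antisense, 1764 of them had at least 1 count, and the 152 genes chosen by their count (100 or more counts summed over all 12 libraries) are described here. The total count is thus what selected them, and it is given as a description only.

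The libraries come from HepG2 cells, an established human hepatoma line, and Ls174 cells, an established human colon adenocarcinoma line, both of the genotype WT in the labels. Each line was left untreated (control) or incubated with an extract of the red seaweed Hypnea musciformis (HME) for 24 h, with 3 biological replicates per group. The labels give the concentration as 0.7 mg/ml, and the study's methods name a slightly higher one for the same cells. RNA was counted at the 3′ ends of polyadenylated transcripts, so that a count does not scale with transcript length and fewer cells with an RNA cannot be told apart from less RNA per cell. Levels are given in CPM, counts scaled to a common library size with TMM factors over the 12 libraries.

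The sequences that the results turn on are shown first. CEBPA-AS1, which GENCODE now names CEBPA-DT, starts head to head with CEBPA, the gene of a transcription factor that drives liver and granulocyte differentiation. The RefSeq window from 250 bases before to 50 bases after the start of CEBPA-DT on GRCh38.p14 is chr19:33302571-33302870 on the plus strand, and the start of CEBPA on the minus strand lies 287 bases away from that of CEBPA-DT. The start of CEBPA lies just outside this window, whose sequence is printed with the motif GGGCGG, on either strand, in capitals.
CEBPA-DT promoter window: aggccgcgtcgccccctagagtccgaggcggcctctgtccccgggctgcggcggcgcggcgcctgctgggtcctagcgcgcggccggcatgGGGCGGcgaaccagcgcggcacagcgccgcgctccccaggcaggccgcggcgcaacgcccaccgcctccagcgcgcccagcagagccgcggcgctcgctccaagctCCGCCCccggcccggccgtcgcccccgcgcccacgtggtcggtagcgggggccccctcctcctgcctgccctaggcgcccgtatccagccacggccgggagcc
GC made up 81.0% of this window, against a median of 58.7% over the 35116 promoter windows of the same length in the table. GGGCGG or its complement CCGCCC was found 2 times here and in 45.0% of all windows, and neither CCAAT (34.6% of all windows) nor TATAAA (11.5%) was found on either strand. The window of CEBPA itself holds GGGCGG 2 times, TATAAA 1 time and no CCAAT. These matches describe letters and are not shown to be sites.

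Counts were assigned to short regions at or just past annotated 3′ ends, and in 87 of the 152 members 1 such region holds every count. The leading regions of 5 RNAs described below are printed on the strand of the RNA (GRCh37), all in lower case because none holds AATAAA or ATTAAA, the letters of the common polyadenylation signal, which capitals would mark. In SCARNA9 the printed region holds 51.1% of the counts, and in the other 4 it holds all. They are those of DBH-AS1 (chr9:136519511-136519707, minus), RP11-332H18.4 (chr17:59470620-59470818, minus), SCARNA9 (chr11:93454788-93454984, plus), RP11-284F21.10 (chr1:156611261-156611457, minus) and ZFAS1 (chr20:47905798-47905994, plus).
DBH-AS1: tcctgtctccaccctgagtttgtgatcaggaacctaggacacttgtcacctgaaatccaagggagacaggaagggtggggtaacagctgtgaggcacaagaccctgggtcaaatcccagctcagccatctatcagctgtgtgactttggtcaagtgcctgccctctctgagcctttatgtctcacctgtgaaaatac
RP11-332H18.4: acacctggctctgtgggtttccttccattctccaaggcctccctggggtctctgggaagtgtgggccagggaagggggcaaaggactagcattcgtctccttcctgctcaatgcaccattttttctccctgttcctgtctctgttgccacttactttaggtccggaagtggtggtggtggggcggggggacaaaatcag
SCARNA9: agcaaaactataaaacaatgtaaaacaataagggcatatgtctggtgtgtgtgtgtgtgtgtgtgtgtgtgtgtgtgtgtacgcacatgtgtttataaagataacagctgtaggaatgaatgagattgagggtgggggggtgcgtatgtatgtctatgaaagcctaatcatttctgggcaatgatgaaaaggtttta
RP11-284F21.10: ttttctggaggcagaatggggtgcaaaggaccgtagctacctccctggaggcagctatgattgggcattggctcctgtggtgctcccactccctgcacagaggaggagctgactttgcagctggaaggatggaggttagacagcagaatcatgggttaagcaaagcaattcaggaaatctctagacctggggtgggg
ZFAS1: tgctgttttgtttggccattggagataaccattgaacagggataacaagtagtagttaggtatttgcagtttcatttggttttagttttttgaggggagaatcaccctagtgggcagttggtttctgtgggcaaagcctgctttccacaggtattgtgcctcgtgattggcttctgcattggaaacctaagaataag
Over all 152 leading regions 48 (31.6%) hold this hexamer, against 24.5% of the 72081 regions of 197 bases of all genes and 37.8% of the 1795 such regions with 100 or more counts. A run of 8 or more A was found in 11.2% of the leading regions, against 8.54% and 26.6% in the same 2 sets.

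The members together held 67110 counts, which is 76.7% of the counts of all antisense genes and 0.207% of all counts. ZFAS1 alone took 22.1% of them and the 4 highest members 36.5%, whereas the median member had 205 counts. At the limit of 100 counts, RP3-325F22.5, RP11-380O24.1 and RP11-46C24.7 lay just inside with 101 each, and AC133528.2, RP11-66N24.4 and 1 more gene just outside with 99 each. GENCODE spans (release 44 on GRCh37) matched 143 members, of which 131 are lncRNA genes there and 6 are now protein coding, among them MMP24-AS1, TOPORS-AS1 and TUG1.

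By the gene overlapping or nearest on the other strand, called the partner here, 47 members lay head to head (starts within 2000 bases), 38 tail to tail, 55 embedded and 12 apart. The partner was protein coding for 136 members, and 54 members had a protein-coding start on the other strand within 500 bases of their own start. The deposited counts mostly distinguish strands: in 805 pairs of nested regions on opposite strands the smaller count was at the median 0.148% of the larger. In 50 of these pairs (6.21%) the counts of both strands lay within 2-fold of each other. Even so, 16 members had over 50% of their counts in regions that share bases with a region on the other strand, including SNHG12 (60.9%), MMP24-AS1 (99.8%), HOXA10-AS (100%), LBX2-AS1 (100%) and TOPORS-AS1 (100%). On the same strand, 10 members had over 50% of their counts in regions that overlap an exon of another GENCODE gene, including AC007009.1 and CEBPA-AS1 (100% each). CSAG2 and CSAG3 are near-identical copies whose counts are uncertain.

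Libraries held 1790841 to 3656662 counts, and 3 counts correspond to at most 1.86 CPM in a HepG2 control library, 1.79 in a HepG2 HME, 1.47 in an Ls174 control and 1.09 in an Ls174 HME library. Replicates of every group differed by more than sampling noise. All 8 liver markers (ALB, AFP and others) were present in HepG2 cells. They summed to between 12060 and 19440 CPM there, against 22.99 to 151 in Ls174 cells. Ls174 control 3 held ALB at 44.8, AFP at 32.83 and TF at 8.654 CPM. Ls174 HME 1 held ALB at 16.31 and TF at 10.51 CPM, and Ls174 HME 3 held ALB at 9.476 CPM. In Ls174 controls 1 and 2 and Ls174 HME 2 these 3 markers were at 0. Whether this bears on low Ls174 values of RNAs high in HepG2 was not tested. The 8 colon markers summed to 326 to 527 CPM in Ls174 and to 71.1 to 209 in HepG2 cells, although MUC2 reached at most 2.16 CPM in any Ls174 library. VIL1, 1 of the 8, went the other way, at 52.6 to 186 CPM in HepG2 and 42.1 to 78.7 CPM in Ls174 cells, and made up most of the HepG2 sum. HepG2 control 2 and Ls174 control 1 stood apart from their replicates, with chi-square values per degree of freedom of 54.1 and 49.1 against 13.6 between the other HepG2 controls, and of 34.5 and 37.0 against 5.68 between the other Ls174 controls. HepG2 HME 2 had 24.5 and 16.4 against 11.9, and in this library the 7 markers of other cell types summed to 1130 CPM, with COL1A1 at 546, COL1A2 at 404 and VIM at 60.2 CPM, against at most 86.5 CPM in the other HepG2 libraries and 7.98 in Ls174. PTPRC was at 0 everywhere. The part of these transcripts in the results was not tested, and several results below are also given without one of these libraries.

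Untreated HepG2 and Ls174 cells were compared first, to see which antisense RNAs belong to which line. HOXA10-AS and HOXA11-AS were counted in Ls174 cells only, DBH-AS1 and HOXD-AS1 in HepG2 cells only, and the antisense RNA of TBX2 had 2 counts in Ls174 controls against 526 in HepG2 controls. A count in every control library was found for 97 members, 9 members had no count in any HepG2 library and 6 no count in any Ls174 library. Because the limit of 100 counts was set over both lines, it also admits RNAs made in 1 line only, so the counts below describe the members and are no test of them as a group. By edgeR's quasi-likelihood test, 54 of 132 tested members passed an unadjusted p under 0.05 with a log2 fold change beyond 0.58, which is meant by called below, against 35.0% of all 11907 tested genes, 25 being higher in HepG2 (all genes 19.5%) and 29 lower (15.4%). At a Benjamini-Hochberg adjusted p under 0.05 there were 38 (23.5% of all genes), 18 higher (14.2%) and 20 lower (9.33%). The groups did not overlap in 67 members, against 42.7% of all tested genes. The median log2 fold change of HepG2 over Ls174 was -0.24 over the tested members, also with members at 0 in a group set to their bound, and 0.04 over all tested genes.

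**Figure D1:**
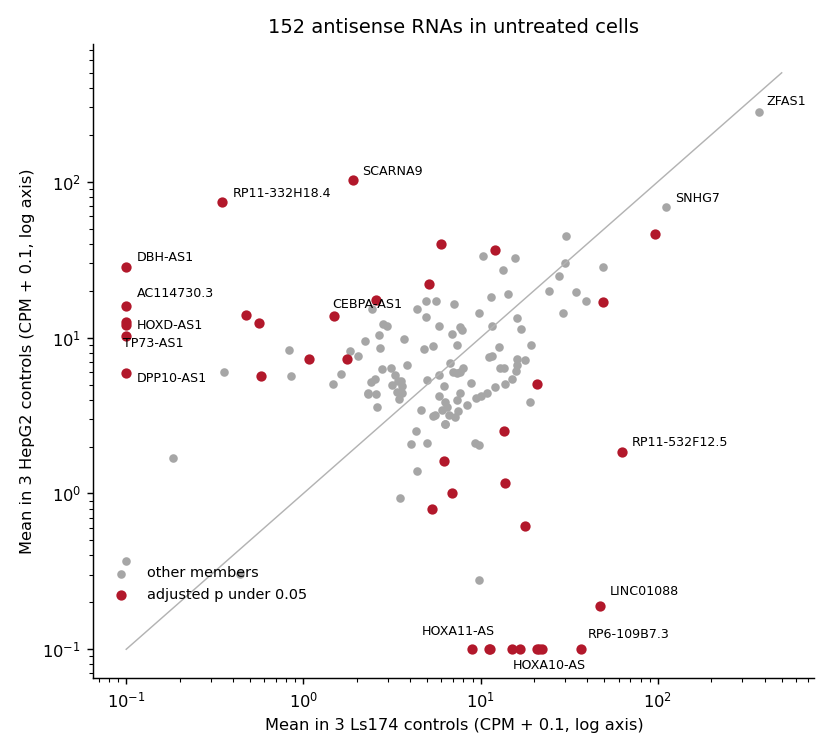
Mean level of each of the 152 members in the 3 HepG2 controls (vertical) against the 3 Ls174 controls (horizontal), in CPM plus 0.1 on log axes. Red points have an adjusted p under 0.05 by edgeR, points on an edge had 0 counts in that line's controls, and the line marks equal levels. Members absent from 1 line, such as DBH-AS1 and HOXA11-AS, lie along the edges.

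Among the RNAs higher in HepG2, RP11-332H18.4 (now TBX2-AS1), which overlaps the gene of the transcription factor TBX2, was at 54.5, 105 and 61.1 CPM in the HepG2 controls and at 0.489, 0 and 0.254 CPM in the Ls174 controls. The 526 counts in HepG2 controls against 2 in Ls174 controls give a ratio of 309 (95% counting interval 85.0 to 2555, adjusted p = 0.0001 by edgeR). TBX2 itself was at 19.2, 27.2 and 18.5 CPM in HepG2 and at 0 in all 3 Ls174 controls.

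DBH-AS1, antisense to the dopamine beta-hydroxylase gene, was at 28.6, 27.8 and 28.9 CPM in the HepG2 controls, and had no count in Ls174. This is at least 19.4-fold higher in HepG2, taking 3 counts per library as the floor (adjusted p = 0.0003 by edgeR). DBH itself had 0 counts in all libraries. AC114730.3, which overlaps the sialidase gene NEU4, was at 5.34, 28.4 and 14.1 CPM against 0, at least 10.9-fold higher (adjusted p = 0.0036), and its partner NEU4 was at 140, 530 and 137 CPM in HepG2 against 0, 1.54 and 0 in Ls174. HepG2 control 2 was the highest library for both.

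HOXD-AS1 (now HAGLR) was at 10.4, 14.8 and 12.4 CPM in HepG2 and absent from Ls174, at least 8.57-fold higher, while its partner HOXD3 had no count in any library. TP73-AS1 (at least 8.11-fold), BOLA3-AS1 (at least 6.86-fold) and DPP10-AS1 (at least 3.98-fold) were likewise at 0 in every Ls174 control, and each passed the adjusted threshold. BOLA3, which shares its start region with BOLA3-AS1 and encodes a mitochondrial iron-sulfur assembly factor, was expressed in both lines, at 116, 9.89 and 86.0 CPM in HepG2 and 51.4, 79.4 and 83.7 CPM in Ls174. This head-to-head pair was thus called on 1 strand and not on the other.

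SCARNA9, a small Cajal body RNA that guides RNA modification, was at 115, 51.9 and 139 CPM in HepG2 and at 0, 1.85 and 3.56 CPM in Ls174. The log2 fold change was 5.66 ± 0.76 (SE, edgeR adjusted p = 0.0007). SCARNA9 lies within the gene KIAA1731 (CEP295) on the same strand. An exon of that gene overlaps the region with 1564 of the 3196 SCARNA9 counts, which lies just past the annotated end of SCARNA9. KIAA1731 had a log2 fold change of -0.24 ± 0.57 (SE, edgeR adjusted p = 0.81).

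On the Ls174 side, HOXA11-AS was at 18.1, 11.4 and 15.5 CPM and HOXA10-AS at 25.4, 13.9 and 10.2 CPM, with no count in any HepG2 library, at least 8.10-fold and 8.90-fold higher in Ls174. HOXA genes set positional identity along the body axis, and the protein-coding neighbours HOXA9 (86.1, 77.5 and 86.0 CPM in Ls174 controls) and HOXA11 followed the same pattern. HOXA9 had 0 counts in the HepG2 controls.

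LINC01088 was at 66.0, 37.7 and 38.2 CPM in Ls174 controls and had 1 count in all HepG2 controls, a ratio of 347 with a 95% counting interval of 61.9 to 13730 (adjusted p = 0.0001 by edgeR). RP6-109B7.3 (now PRR34-AS1) was at least 19.8-fold higher in Ls174, with 29.3, 38.0 and 42.8 CPM. AP001065.2 (now TRPM2-AS, at least 11.4-fold), CTD-2194D22.3 (now IRX4-AS1, at least 11.9-fold), AC007009.1 (now ICA1-AS1, at least 11.1-fold) and CSAG3 (at least 6.04-fold) were also at 0 in HepG2. The counts of AC007009.1 may hold those of another lncRNA gene on the same strand, whose exon overlaps its only region. TRPM2, a calcium-permeable channel gene and partner of AP001065.2, was at 36.2, 28.7 and 34.4 CPM in Ls174 controls and at 0.267, 0 and 0 CPM in HepG2.

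Host transcripts of small nucleolar RNAs are spliced RNAs whose introns release guides for ribosomal RNA modification, and ZFAS1, SNHG7 and SNHG12 were among the most counted members and present in both lines. ZFAS1 was at 401, 144 and 298 CPM in HepG2 controls and 290, 405 and 419 CPM in Ls174 controls (log2 fold change -0.38 ± 0.41 SE, adjusted p = 0.57 by edgeR), and the groups overlapped. SNHG12 was at 46.5, 40.8 and 51.0 CPM in HepG2 and 116, 78.7 and 93.2 CPM in Ls174 controls, with a log2 fold change of -1.02 ± 0.31 (SE, edgeR adjusted p = 0.043), and the adjusted call was lost whichever library was left out. SNHG7 had -0.66 ± 0.33 (SE, adjusted p = 0.19).

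HME treatment of HepG2 cells was examined next. DBH-AS1, the TBX2 antisense RNA and CEBPA-AS1 fell, SCARNA9 rose, and the snoRNA host transcripts ZFAS1, SNHG7 and SNHG12 rose at the unadjusted threshold. Of 102 tested members 24 passed an unadjusted p under 0.05 with a log2 fold change beyond 0.58 by edgeR, against 22.2% of all 11343 tested genes. Only 6 of them were higher with HME (all genes 11.3%) and 18 were lower (10.9%). At an adjusted p under 0.05, 4 members remained (3.31% of all genes), 1 higher (2.77%) and 3 lower (0.538%). The groups did not overlap in 36 members (30.8% of all genes). The median log2 fold change was -0.40 over the tested members and -0.04 over all tested genes, with 67.6% of members and 52.4% of all genes below 0. Without HepG2 HME 2, 20 members passed the unadjusted threshold. The adjusted count was 1 without any 1 of the 3 HME libraries or without HepG2 control 3, and 7 without HepG2 control 2.

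**Figure D2:**
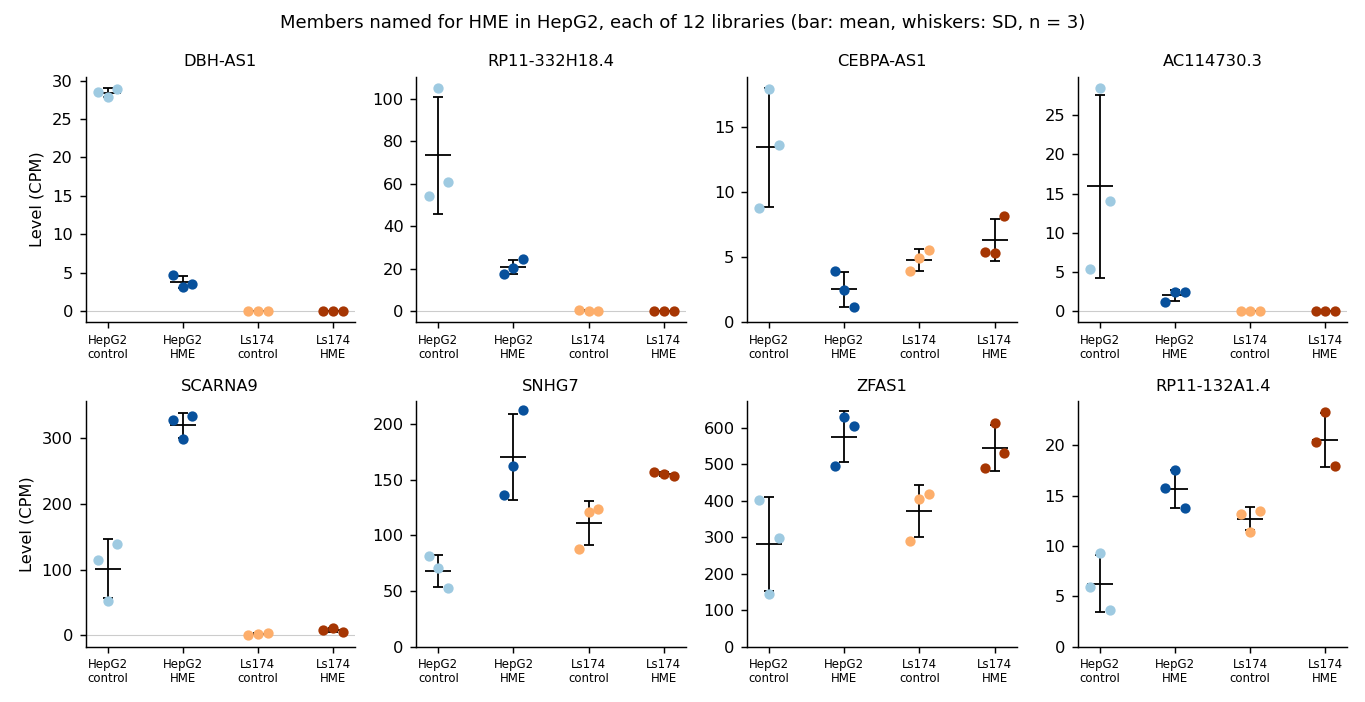
Level in CPM of 8 members in each of the 12 libraries, by group, with bars at the mean and whiskers of 1 SD (n = 3). In the upper row the HepG2 HME libraries lie below the HepG2 controls, and in the lower row they lie above them.

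DBH-AS1 fell from 28.6, 27.8 and 28.9 CPM in HepG2 controls to 4.72, 3.15 and 3.58 CPM with HME. The groups lay far apart, and the log2 fold change was -2.87 ± 0.36 (SE, adjusted p = 0.0033 by edgeR). It stayed past the adjusted threshold without any single library, the highest adjusted p being 0.033.

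RP11-332H18.4 fell from 54.5, 105 and 61.1 CPM to 17.7, 20.3 and 24.5 CPM, a log2 fold change of -1.82 ± 0.38 (SE, edgeR adjusted p = 0.032), which lost the adjusted call, with an adjusted p of up to 0.15, without any 1 HME library or HepG2 control 3. TBX2 was at 19.2, 27.2 and 18.5 CPM in controls and at 8.26, 39.2 and 11.9 CPM with HME (log2 fold change -0.10 ± 0.55 SE, adjusted p = 0.94). The high value is that of HepG2 HME 2, and without this library TBX2 had -1.08 ± 0.47 (SE, adjusted p = 0.32 by edgeR) and was called. Whether sense and antisense differ in response at this locus therefore rests on that library, in which COL1A1 and COL1A2 were also high.

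CEBPA-AS1 fell from 8.81, 17.9 and 13.7 CPM to 3.94, 2.45 and 1.19 CPM (log2 fold change -2.32 ± 0.54 SE, adjusted p = 0.0499 by edgeR). CEBPA, which starts beside the window printed above, fell from 166, 317 and 113 CPM to 20.9, 52.2 and 47.2 CPM, with a log2 fold change of -2.33 ± 0.51 (SE, edgeR adjusted p = 0.04). Neither gene's groups overlapped, and both fits gave nearly the same log2 fold change. Leaving out 1 library took the adjusted p of CEBPA-AS1 up to 0.18, and that of CEBPA up to 0.15, while CEBPA-AS1 kept the unadjusted call without any single library. Its region overlaps an exon of another lncRNA gene on the same strand in GENCODE, so the counts may hold both.

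AC114730.3 fell from 5.34, 28.4 and 14.1 CPM to 1.18, 2.45 and 2.39 CPM, with a log2 fold change of -2.95 ± 0.71 (SE, edgeR adjusted p = 0.056). Its partner NEU4 fell from 140, 530 and 137 CPM to 70.0, 81.6 and 89.0 CPM (log2 fold change -1.78 ± 0.56 SE, adjusted p = 0.11). The control value of 530 is that of HepG2 control 2, without which NEU4 had -0.72 ± 0.22 (SE, adjusted p = 0.083).

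LBX2-AS1 and LBX2, a homeobox gene, also fell together. LBX2-AS1 went from 7.74, 9.27 and 14.1 CPM to 1.18, 3.85 and 5.38 CPM (log2 fold change -1.59 ± 0.57 SE, adjusted p = 0.15 by edgeR) and LBX2 from 5.61, 14.8 and 5.22 CPM to 2.36, 1.40 and 1.19 CPM (-2.27 ± 0.64 SE, adjusted p = 0.086). Without 1 library the call of LBX2-AS1 held in 4 of 6 fits, and it was lost without HepG2 control 3. All counts of LBX2-AS1 lie in a region that shares bases with a region on the other strand.

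**Figure D3:**
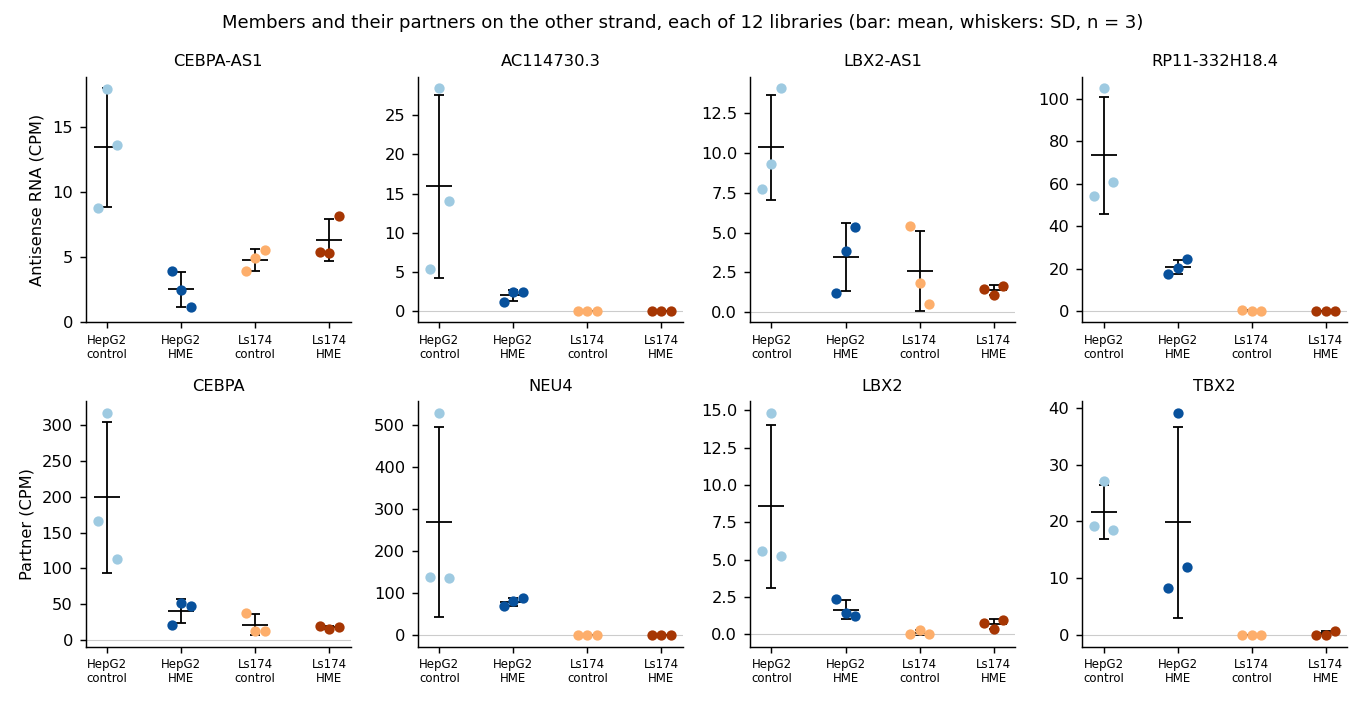
Levels in CPM of 4 antisense RNAs (upper row) and of their partners on the other strand (lower row) in each of the 12 libraries, with bars at the mean and whiskers of 1 SD (n = 3). CEBPA-AS1, AC114730.3 and LBX2-AS1 are lower with HME in HepG2 cells, as are their partners, whereas TBX2 is split by HepG2 HME 2 at 39.2 CPM.

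In the other direction, SCARNA9 rose from 115, 51.9 and 139 CPM to 328, 298 and 334 CPM in HepG2 cells, a log2 fold change of 1.68 ± 0.38 (SE, edgeR adjusted p = 0.044). Its partner TAF1D, a subunit of the RNA polymerase I initiation factor and a host of small nucleolar RNAs, lies 8082 bases away. TAF1D was at 93.2, 49.5 and 71.9 CPM in controls and 122, 155 and 108 CPM with HME (log2 fold change 0.86 ± 0.33 SE, adjusted p = 0.17 by edgeR). SCARNA9 kept the adjusted call only without HepG2 control 2 and had an adjusted p of up to 0.165 without another library, while the unadjusted call held each time. The same-strand gene KIAA1731 had 0.23 ± 0.45 (SE, adjusted p = 0.79).

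SNHG7 rose from 81.5, 70.5 and 53.0 CPM to 136, 162 and 213 CPM (log2 fold change 1.33 ± 0.33 SE, adjusted p = 0.06 by edgeR). ZFAS1 went from 401, 144 and 298 CPM to 495, 629 and 603 CPM (1.06 ± 0.38 SE, adjusted p = 0.15), and it lost the unadjusted call without HepG2 HME 2 or 3. SNHG12 went from 46.5, 40.8 and 51.0 CPM to 81.5, 78.4 and 60.9 CPM (0.69 ± 0.29 SE, adjusted p = 0.2), which lost the call without HepG2 HME 1 or 2 or HepG2 control 1 or 3. None of the 3 passed the adjusted threshold. In each of them the HME libraries all lay above the controls. Of the other members named as such hosts, SNHG10 was at 9.35, 4.33 and 8.84 CPM in controls and 11.8, 7 and 7.76 CPM with HME (0.23 ± 0.44 SE, adjusted p = 0.78), and RP11-752G15.6 (now SNHG21), at 4.81, 5.56 and 1.61 CPM in controls and 0.394, 1.75 and 3.58 CPM with HME, was too low to be tested. RP11-132A1.4 (now EMSLR) rose from 5.88, 9.27 and 3.62 CPM to 15.7, 17.5 and 13.7 CPM (1.36 ± 0.44 SE, adjusted p = 0.12).

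In a further 3 members nearly all counts came from HepG2 HME 2: RP11-319G6.1 (502 of 508 counts), STXBP5-AS1 (376 of 382) and ATP6V0E2-AS1 (284 of 301). RP11-16K12.1 had 611 of its 689 counts in Ls174 HME 1. None of the 4 was tested within the line of that library, because too few libraries reached the minimum count. The regions of RP11-16K12.1 (chr15:79278269-79278465, plus) and STXBP5-AS1 (chr6:147164053-147164249, minus) open with runs of 25 and 17 A in the genome, shown in capitals. The oligo(dT) primer of such libraries anneals to A stretches, and whether these runs bear on the counts was not tested.
RP11-16K12.1: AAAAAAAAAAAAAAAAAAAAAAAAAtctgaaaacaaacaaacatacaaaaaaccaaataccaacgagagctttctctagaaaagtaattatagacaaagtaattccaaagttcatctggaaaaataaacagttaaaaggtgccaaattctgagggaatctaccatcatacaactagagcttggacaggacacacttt
STXBP5-AS1: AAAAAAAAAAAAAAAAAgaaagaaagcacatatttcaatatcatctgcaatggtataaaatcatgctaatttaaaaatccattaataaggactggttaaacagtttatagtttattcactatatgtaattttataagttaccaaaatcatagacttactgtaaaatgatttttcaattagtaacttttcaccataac
At least 3 of the 152 leading regions open with 8 or more A. Of these 3, 2 belong to members with over 50% of their counts in 1 library. HOXA-AS2 was also high in HepG2 HME 2, at 15.1 CPM against 1.18 and 1.19 CPM in HepG2 HME 1 and 3 and 6.41, 6.80 and 8.44 CPM in the controls, and without that library its log2 fold change went from -0.22 (adjusted p = 0.9) to -2.52 and it was called. The part of the collagen and vimentin transcripts of this library in these values was not tested.

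In Ls174 cells RP11-284F21.10, MAFG-AS1, LINC00659 and SCARNA9 were higher with HME and LINC01088 was lower at the unadjusted thresholds. No member passed an adjusted p under 0.05 by edgeR (1.18% of all 11319 tested genes did), 16 of 116 tested members had an unadjusted p under 0.05, and DESeq2 called 1 at its adjusted p. With a log2 fold change beyond 0.58 as well, 14 members were called (12% of all genes), 9 higher (4.11%) and 5 lower (7.85%). Without Ls174 HME 1, 2 or 3 these 14 became 8, 6 and 8, and without Ls174 control 1 there were 9 members past the adjusted threshold. The groups did not overlap in 25 members (23.8% of all genes). The median log2 fold change was 0.04 over the members and 0.00 over all tested genes.

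RP11-284F21.10, an RNA within the gene of the brain proteoglycan BCAN on the other strand, went from 13.7, 11.7 and 14.3 CPM in Ls174 controls to 22.5, 38.9 and 34.0 CPM with HME (log2 fold change 1.26 ± 0.29 SE, adjusted p = 0.097 by edgeR). RP13-582O9.5 (now MINCR, a MYC-induced lncRNA) went from 13.7, 14.8 and 14.3 to 23.9, 31.8 and 26.5 CPM (0.93 ± 0.25 SE, adjusted p = 0.14), and LINC00659 from 16.1, 17.6 and 19.1 to 25.0, 43.9 and 34.3 CPM (0.95 ± 0.27 SE, adjusted p = 0.17). MAFG-AS1 went from 4.89, 5.87 and 4.33 to 10.1, 12.4 and 13.4 CPM (1.24 ± 0.36 SE, adjusted p = 0.19). In these 4 RNAs every HME library lay above every control, and each kept its call without any single library.

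Toward lower levels, LINC01088 went from 66.0, 37.7 and 38.2 CPM to 20.3, 29.4 and 25.8 CPM (log2 fold change -0.91 ± 0.30 SE, adjusted p = 0.24 by edgeR). HNRNPU-AS1 had -1.03 ± 0.38 (SE, adjusted p = 0.29) and RP11-342K6.1 -0.65 ± 0.24 (SE, adjusted p = 0.3). ZDHHC12-DT, by its GENCODE name, had -2.04 ± 0.72 (SE, adjusted p = 0.275), which was -0.80 without Ls174 control 1, where it was at 41.1 CPM against 7.41 and 8.40 in the other controls. Without 1 library the call was lost for LINC01088 without Ls174 HME 1, for HNRNPU-AS1 without Ls174 HME 1 or 2, for RP11-342K6.1 without Ls174 HME 2 or 3 or control 2 or 3, and for ZDHHC12-DT without Ls174 HME 2 or 3 or control 1. The snoRNA hosts on the list had 0.55 ± 0.21 (ZFAS1, SE, adjusted p = 0.32), 0.48 ± 0.20 (SNHG7, SE, adjusted p = 0.34) and -0.43 ± 0.25 (SNHG12, SE, adjusted p = 0.48) on the log2 scale, all short of the fold threshold of 0.58. SCARNA9 went from 0, 1.85 and 3.56 to 8.70, 11 and 5.55 CPM (2.05 ± 0.75 SE, adjusted p = 0.29), at a level far below that in HepG2, and it lost the call without Ls174 HME 1 or 2 or control 2.

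The difference between the HME effects of the lines was then tested as an interaction over all 12 libraries. Of 147 tested members 18 were called at the unadjusted thresholds (13.2% of all 13040 genes), 2 with the higher effect in HepG2 (all genes 7.42%) and 16 with the lower (5.75%), and 1 passed an adjusted p under 0.05 (0.644%). That RNA was RP11-284F21.10, which fell in HepG2 cells from 22.2, 38.3 and 20.1 CPM to 6.30, 12.3 and 12.5 CPM (log2 fold change -1.37 ± 0.43 SE, adjusted p = 0.11 by edgeR) and rose in Ls174 cells as given above. The effects differed by -2.63 ± 0.52 on the log2 scale (SE, adjusted p = 0.034 by edgeR). Its adjusted p went up to 0.13 without Ls174 HME 2, and the adjusted call was lost without any 1 HME library of either line and without Ls174 control 2 or 3.

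RP13-582O9.5 had a difference of -2.54 ± 0.63 (SE, adjusted p = 0.09 by edgeR), going from 14.4, 24.1 and 18.5 to 9.84, 6.65 and 1.19 CPM in HepG2. CEBPA-AS1 had -2.70 ± 0.68 (SE, adjusted p = 0.095), and in Ls174 cells it went from 3.91, 4.94 and 5.60 to 5.44, 5.31 and 8.17 CPM (0.37 ± 0.43 SE), and CEBPA had -2.10 ± 0.69 (SE, adjusted p = 0.2). RP11-505K9.1 had -4.27 ± 1.35 (SE, adjusted p = 0.18), with HepG2 control 2 at 30.9 CPM against 4.81 and 6.03 in the other HepG2 controls. The 2 members with the higher effect in HepG2 were SNHG12 (1.10 ± 0.38 SE, adjusted p = 0.22) and SNHG7 (0.83 ± 0.38 SE, adjusted p = 0.36), which kept the call in 4 of 12 fits without 1 library. DBH-AS1, absent from Ls174, has no effect there to compare.

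**Figure D4:**
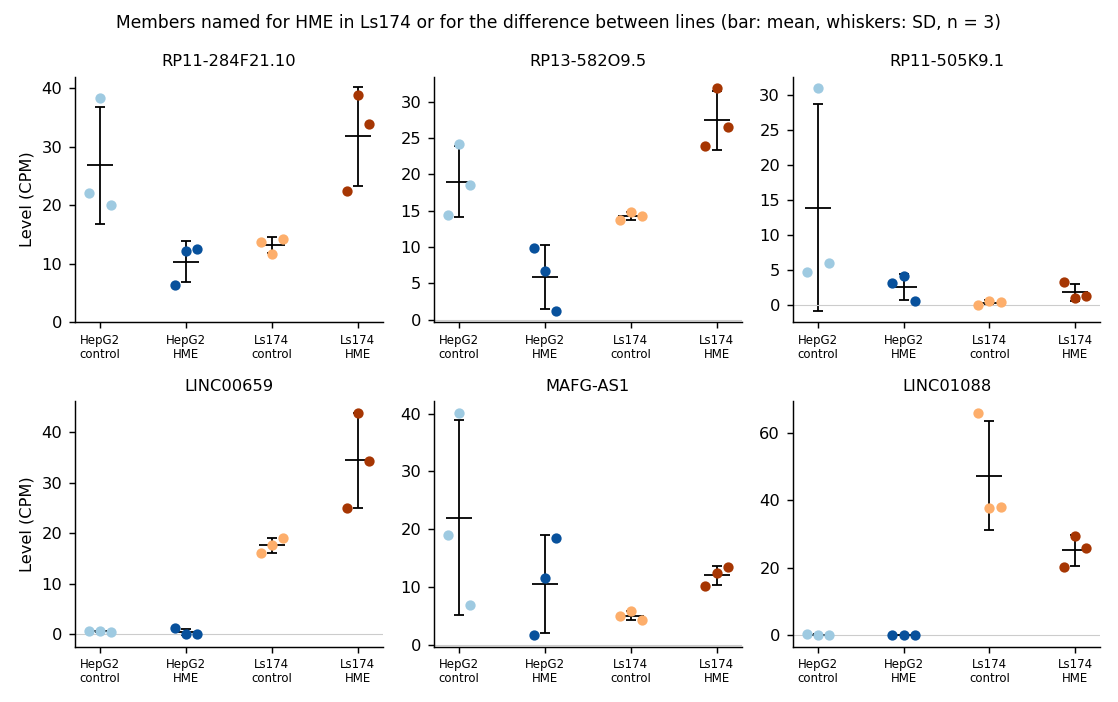
Level in CPM of 6 members in each of the 12 libraries, by group, with bars at the mean and whiskers of 1 SD (n = 3). RP11-284F21.10 and RP13-582O9.5 are lower with HME in HepG2 and higher with HME in Ls174, with no overlap of groups in either line, while HepG2 control 2 sets the mean of RP11-505K9.1.

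The change of each member was finally set beside that of its partner on the other strand. Between the lines both genes were tested in 82 pairs, and member and partner had the same sign of the log2 fold change in 45 of them. The partner was called, at the unadjusted thresholds and always in the same direction, beside 11 of 32 called members (34.4%). It was called beside 9 of 50 members that were not called (18.0%), while 35.0% of all tested genes were called. Without Ls174 control 1 the counts were 17 of 37 (45.9%), 15 of them in the same direction, and 15 of 60. By arrangement, with all libraries, the 11 were 5 of 14 head-to-head, 5 of 9 embedded, 0 of 7 tail-to-tail and 1 of 2 distant pairs. They include RP11-332H18.4 with TBX2, AC114730.3 with NEU4, HOXA10-AS with HOXA9, AP001065.2 with TRPM2 and CEBPA-AS1 with CEBPA, and RP11-532F12.5 (now SPINT1-AS1, log2 fold change -5.03 ± 0.52 SE) with SPINT1 (-3.02 ± 0.87 SE), a gene of an epithelial protease inhibitor. CSAG2 with MAGEA2 and CSAG3 with MAGEA2B are also among the 11. Because CSAG2 and CSAG3 are near-identical copies with uncertain counts, these may not be independent pairs.

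With HME in HepG2 cells, 4 of 12 called members with a tested partner had a called partner (33.3%), all in the same direction: CEBPA-AS1, AC114730.3, LBX2-AS1 and SCARNA9. Beside members that were not called the partner was called in 17 of 49 pairs (34.7%), and 22.2% of all tested genes were called. Without HepG2 HME 2 these counts were 6 of 14 (42.9%) and 11 of 51 (21.6%), with RP11-332H18.4 and HOXA-AS2 among the 6 and SCARNA9 not, and without HepG2 control 2 they were 7 of 17 (41.2%, with 5 in the same direction) and 15 of 54 (27.8%). Over the fits without 1 library each, the share beside called members ranged from 27.3% to 42.9% and that beside other members from 16.4% to 30.0%. In Ls174 cells 0 of 9 called members had a called partner, against 3 of 65 others, and without Ls174 control 3 there were 4 of 10, of which 3 lay in the same direction. For the interaction the count was 4 of 13 (30.8%), with 3 in the same direction and 1 opposite. Beside members that were not called it was 8 of 85 (9.41%), and 13.2% of all tested genes were called. Over all pairs with both genes tested, called or not, the signs agreed in 34 of 61 in HepG2, 46 of 74 in Ls174 and 48 of 98 for the interaction. The comparisons of HME with control share their control libraries with that of the lines, and a member and its partner are measured in the same libraries.

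**Figure D5:**
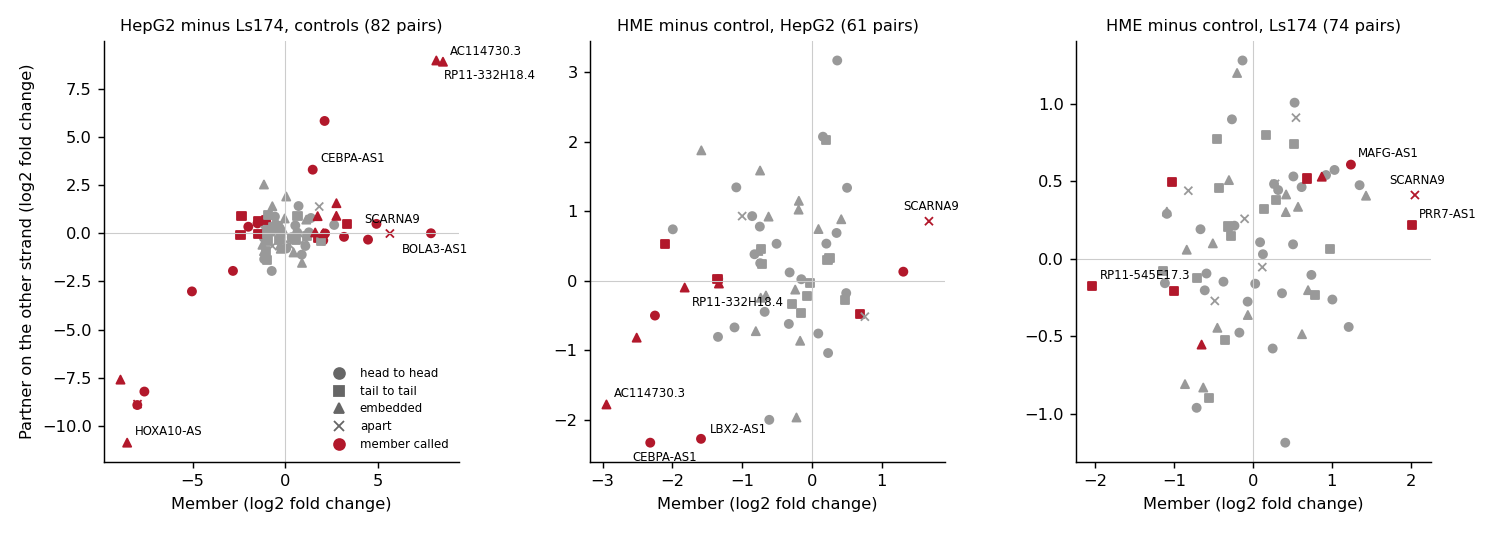
Log2 fold change of the partner on the other strand (vertical) against that of the member (horizontal) for pairs with both genes tested, in the comparison of untreated lines (82 pairs), in HepG2 with HME (61 pairs) and in Ls174 with HME (74 pairs). Red symbols are members called at the unadjusted thresholds and shapes give the arrangement. Pairs with both genes called between the lines lie in the same direction, as for RP11-332H18.4 and HOXA10-AS, while BOLA3-AS1 and SCARNA9 lie far from 0 with partners near 0. Over all pairs drawn, the signs agree in 45 of 82, 34 of 61 and 46 of 74. Fitted values of genes at 0 in a group depend on edgeR's prior count.

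Further groups of the members were counted by lists. The list of snoRNA hosts held 8 names, of which ZFAS1, SNHG7 and SNHG12 were members. These 3 rose in HepG2 with HME at the unadjusted thresholds (median log2 fold change 1.06), 0 of them were called in Ls174 (0.48) and 1 was lower in HepG2 than in Ls174. SNHG10 and SNHG21, which the list did not hold, were not called in any comparison that tested them. Of 4 HOX antisense RNAs, 2 were higher in HepG2 (HOXD-AS1 and HOXA-AS2) and 2 in Ls174 (HOXA10-AS and HOXA11-AS). With HME 0 of the 2 tested in each line were called. The 5 known antisense or regulatory RNAs (FGD5-AS1, PCBP1-AS1, TUG1, NUTM2A-AS1 and PSMD5-AS1) were not called in any comparison. TUG1, for instance, was at 13.1, 8.04 and 4.02 CPM in HepG2 controls and 8.26, 7 and 10.7 CPM with HME (log2 fold change 0.03 ± 0.50 SE, adjusted p = 0.98 by edgeR). Among the antisense RNAs of liver or gut transcription factors, CEBPA-AS1 was higher in HepG2 than in Ls174 controls at the unadjusted thresholds (log2 fold change 1.49 ± 0.50 SE, adjusted p = 0.06 by edgeR) and fell with HME in HepG2 cells.

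Summed over all members, the share of counts was 0.176% ± 0.0168 (SD, n = 3) in HepG2 controls and 0.190% ± 0.0122 with HME, and the groups overlapped. In Ls174 it was 0.218% ± 0.00377 without and 0.238% ± 0.00704 with HME (SD, n = 3), without overlap (two-sided exact permutation test, p = 0.1, the smallest that 3 against 3 libraries allow). Without ZFAS1 the HepG2 shares were 0.148% ± 0.00337 in controls and 0.139% ± 0.00807 with HME (SD, n = 3), so the means took the opposite order, and the groups overlapped. Without ZFAS1 the Ls174 shares were 0.177% ± 0.0105 and 0.180% ± 0.001 (SD, n = 3), and the groups overlapped.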

How the data were processed

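RNA of 3 biological replicates per group was sequenced from 3′ libraries on Ion Torrent instruments. The authors aligned the reads to hg19 (GRCh37) using Hisat2, and metaseqR2 assigned them to 3′ regions. What they deposited are raw integer counts for each region. The submitters' processing notes also name Bowtie2 and Trimmomatic. Versions and the handling of reads with several alignments are not given in the sources used here, so reads of near-identical or overlapping genes may be assigned to either.

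The regions of each gene were summed. Total counts per library ranged from 1790841 to 3656662. Each comparison was fitted by edgeR 4.0.16 (TMM, filterByExpr, quasi-likelihood F test) in R 4.3.3 on the libraries of its groups without covariates, the interaction on all 12, and p values were adjusted by Benjamini-Hochberg over all tested genes. The SE was derived from the F statistic. The thresholds (0.05 for p, 0.58 for the log2 fold change) follow the study. Counting intervals are exact (95%) and, like the floor of 3 counts per library, cover counting error only. Spans came from GENCODE release 44 lifted to GRCh37, sequences from the GRCh37 genome and RefSeq (GRCh38.p14), and tables and figures from Python 3.11.15, pandas 2.3.3, pyranges 0.1.4 and matplotlib 3.10.9. The fits were tested on simulated data.

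Members, lists, thresholds and tests were chosen with earlier results of these data known. Named are the 10 members with the highest mean CPM where discussed, per comparison up to 8 per direction with the largest change at an adjusted p under 0.05 and no overlap of groups (filled to 4 by smallest p), the members of fixed lists, their partners, and the members at the limit. LBX2-AS1, RP11-319G6.1, STXBP5-AS1, ATP6V0E2-AS1, RP11-16K12.1, SNHG10, RP11-752G15.6 and the members named with shared regions were chosen after their values were seen. Alternatives were DESeq2 1.42.0, other scalings, no filter, regions shared with no other gene, a replicate block, 1 fit of all 12 libraries, other partner definitions, other count limits and leaving out each library. Some results of 1 list member and 1 region sequence are not reported here.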

Additional observations from a re-analysis of the deposited data

Results flagged for a closer look

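RP11-284F21.10 was singled out because its response to HME differed between the lines by the interaction test. The HME effect in HepG2 minus that in Ls174 was -2.63 ± 0.52 on the log2 scale (SE, adjusted p = 0.034 by edgeR), with -1.37 in HepG2 and 1.26 in Ls174. All of its 665 counts lie in 1 region just past the annotated 3′ end, which shares no base with another gene's region. Its partner BCAN had 3 counts in all libraries.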

How the results depend on the processing

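Groups of 3 libraries and a median of 205 counts per member limit these comparisons, and many calls lie close to the thresholds. Compared with the counts of members given in the report, 1 fit of all 12 libraries called 59 members between the lines and 10 in HepG2 at an adjusted p under 0.05. DESeq2 called 9 in HepG2, 1 in Ls174 and 3 for the interaction. With no filter beyond 1 count, 37 members were called in HepG2 at the unadjusted thresholds, and 18 in HepG2, 3 in Ls174 and 6 for the interaction at the adjusted one. Without 1 library each, the adjusted counts ranged from 26 to 45 between the lines, from 1 to 7 in HepG2, from 0 to 9 in Ls174 and from 0 to 1 for the interaction, and the unadjusted ones from 43 to 66, from 17 to 29, from 6 to 18 and from 13 to 22. Deviations from the group mean correlated at -0.17 to 0.09 between same-numbered control and HME libraries. Between differently numbered ones they correlated at -0.20 to 0.31. Because the deviations of the 3 libraries of a group sum to 0, these values cannot show whether the replicate numbers pair the libraries. With the replicate block, 21 members were called in HepG2, 10 in Ls174 and 17 for the interaction at the unadjusted thresholds, and 4, 0 and 0 at the adjusted one. Spans taken from the deposited regions, an alternative added after seeing the data, gave 1 called partner beside 10 called members in Ls174 in place of 0. Between the lines they gave 10 of 31 (10 of 49 beside other members) and in HepG2 5 of 15 (12 of 43). For the interaction they gave 3 of 11 (6 of 84), with 0 in the opposite direction. Called members with a called partner, without 1 library each (also added after seeing the data), ranged from 11 to 17 between the lines, from 3 to 7 in HepG2, from 0 to 4 in Ls174 and from 2 to 6 for the interaction, the count of 2 coming without HepG2 HME 3 or Ls174 HME 2. A limit of 50 counts gave 258 members and 200 counts gave 80. Among the named members no called change reversed its direction under any of these alternatives, 56 values lost and 18 gained the unadjusted call, and 1411 stayed on their side. The cause of these changes was not tested.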
